A study of Mus musculus with 6 samples.

Results

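The genes described here encode the ATP-dependent chromatin remodelers of the SWI/SNF, CHD, ISWI and INO80 families, the Asxl proteins and Adnp, many of which are linked to neurodevelopmental disorders. A list of 32 genes was chosen by name and matched by symbol to the RefSeq transcript IDs of the count tables. Of these, 31 genes had at least 1 ID and together held 35 of the 23485 IDs. Pbrm1, which encodes a bromodomain subunit of the PBAF form of SWI/SNF, matched no ID, so its expression is not analysed here. No member gene lay on the X chromosome.

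The tissue was the whole brain of C57BL/6 wild-type embryos (mouse, E15.5, where E is the embryonic day), with no transgene or treatment in either group. Embryos were sexed by their gonads, and 3 female and 3 male samples were compared, each of RNA pooled from several embryos, so that differences between single embryos were not measured. The question was whether transcript levels differ between the sexes in the developing brain. Stranded total RNA libraries gave 4908565 to 10294443 counts per sample.

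Chromatin remodelers use ATP hydrolysis to slide, evict or exchange nucleosomes, and so set which DNA is open to transcription factors. SWI/SNF complexes exchange subunits as neural progenitors become neurons, CHD3 and CHD4 are the motors of the NuRD deacetylase complex, ISWI motors space nucleosomes, and INO80 and SRCAP move the histone variant H2A.Z. Asxl proteins are not motors but partners of the deubiquitinase BAP1, which removes ubiquitin from histone H2A, and ADNP is a zinc finger protein that works with CHD4.

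The promoters of 4 member genes with an unadjusted p under 0.05 in the comparison of the sexes described further on are printed here. The windows run from 250 bases before to 50 bases after the transcription start (RefSeq, GRCm38.p6, read on the strand of the gene), and capitals mark matches to the motifs listed after the sequences. Srcap and Smarcc1 had the lowest male to female ratios of the amply counted members with a window, Chd8 is linked to autism, and Smarcd3 had the opposite direction. The windows are chr7:127511733-127512032 (plus strand) for Srcap, chr9:110131774-110132073 (plus strand) for Smarcc1, chr14:52257711-52258010 (minus strand) for Chd8 and chr5:24601953-24602252 (minus strand) for Smarcd3.
Srcap: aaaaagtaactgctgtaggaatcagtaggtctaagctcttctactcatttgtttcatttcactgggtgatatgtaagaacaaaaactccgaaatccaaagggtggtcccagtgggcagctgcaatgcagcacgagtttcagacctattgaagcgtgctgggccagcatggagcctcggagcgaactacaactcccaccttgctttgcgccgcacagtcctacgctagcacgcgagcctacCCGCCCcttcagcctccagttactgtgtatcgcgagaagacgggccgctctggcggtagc
Smarcc1: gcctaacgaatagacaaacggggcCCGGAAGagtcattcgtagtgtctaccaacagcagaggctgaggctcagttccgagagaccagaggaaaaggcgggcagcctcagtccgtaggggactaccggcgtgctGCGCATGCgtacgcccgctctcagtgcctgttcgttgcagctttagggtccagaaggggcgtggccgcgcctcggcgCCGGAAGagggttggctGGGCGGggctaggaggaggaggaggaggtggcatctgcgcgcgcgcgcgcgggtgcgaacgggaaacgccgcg
Chd8: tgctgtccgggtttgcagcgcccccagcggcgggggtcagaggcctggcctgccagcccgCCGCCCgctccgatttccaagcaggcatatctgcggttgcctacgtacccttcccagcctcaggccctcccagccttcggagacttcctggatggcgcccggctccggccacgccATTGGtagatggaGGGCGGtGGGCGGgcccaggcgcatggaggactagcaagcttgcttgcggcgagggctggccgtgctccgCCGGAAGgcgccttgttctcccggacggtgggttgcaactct
Smarcd3: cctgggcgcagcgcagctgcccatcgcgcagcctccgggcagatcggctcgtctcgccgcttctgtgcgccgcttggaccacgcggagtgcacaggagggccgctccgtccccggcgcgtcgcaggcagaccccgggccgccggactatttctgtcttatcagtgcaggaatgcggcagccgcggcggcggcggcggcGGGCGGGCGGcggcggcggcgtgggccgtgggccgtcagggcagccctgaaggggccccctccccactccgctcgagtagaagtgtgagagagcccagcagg

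Promoter windows were found for 25 member genes (Pbrm1 included), 29 windows in all, and each motif was searched on both strands. The GC box GGGCGG was present in 28 of the 29 windows (96.6%), against 35.7% of all 32851 windows. The median GC content was 67.7% in the member windows and 52.7% in all windows, and the median number of CpG was 32 against 7. The ETS motif CCGGAAG was found in 17.2% of member windows and 8.86% of all windows, and the NRF1 core GCGCATGC in 13.8% and 2.71%. The CCAAT box CCAAT was found in 17.2% of member windows and 37.4% of all windows, and the TATA box TATAAA was found in 3.45% against 13.6%. The window of Smarcd3 holds GC boxes that overlap each other. Smarcc1, which carries ETS matches and an NRF1 core, and Smarcd3, which carries neither, differed in these matches, but a match is no evidence of binding and was not compared with expression.

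The member genes fell into distinct ranges by the counts assigned to them. For 19 genes 1 ID held a mean of 918.3 to 8207 counts per sample, and these 19 IDs are called well covered here. For the other 12 genes no ID reached a mean above 27.5 counts. They were Smarca4, the main SWI/SNF motor of neural progenitors, with its core partners Smarcb1, Smarcc2 and Smarcd2, the CHD motors Chd5, Chd6, Chd7 and Chd9, Bptf, the large subunit of the ISWI complex NURF, Ep400, the motor of the TIP60 complex, Asxl2 and Adnp. All 12 have 2 or more transcripts in RefSeq, whereas 15 of the 19 well covered genes have 1 and the other 4 (Arid1a, Chd4, Smarca2 and Brd7) have 2 or more. Smarca4, for example, had 2 IDs with a mean of 0.833 and 1.83 counts, and Smarcb1 had 0.667 counts in a tissue where both are core subunits. These low values are counts of single IDs and are not read here as gene levels. How reads shared by several transcripts were counted is not given in the sources used here, and its part in the low values was not tested. Of the 35 member IDs, 28 reached 10 counts in 1 or more samples and were tested, 19 of them well covered and 9 low. The 7 untested IDs belong to Smarca2 (1 of 3 IDs), Smarca4 (2), Smarcb1, Smarcd2 (1 of 2 IDs), Chd5 and Ep400.

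**Figure D1:**
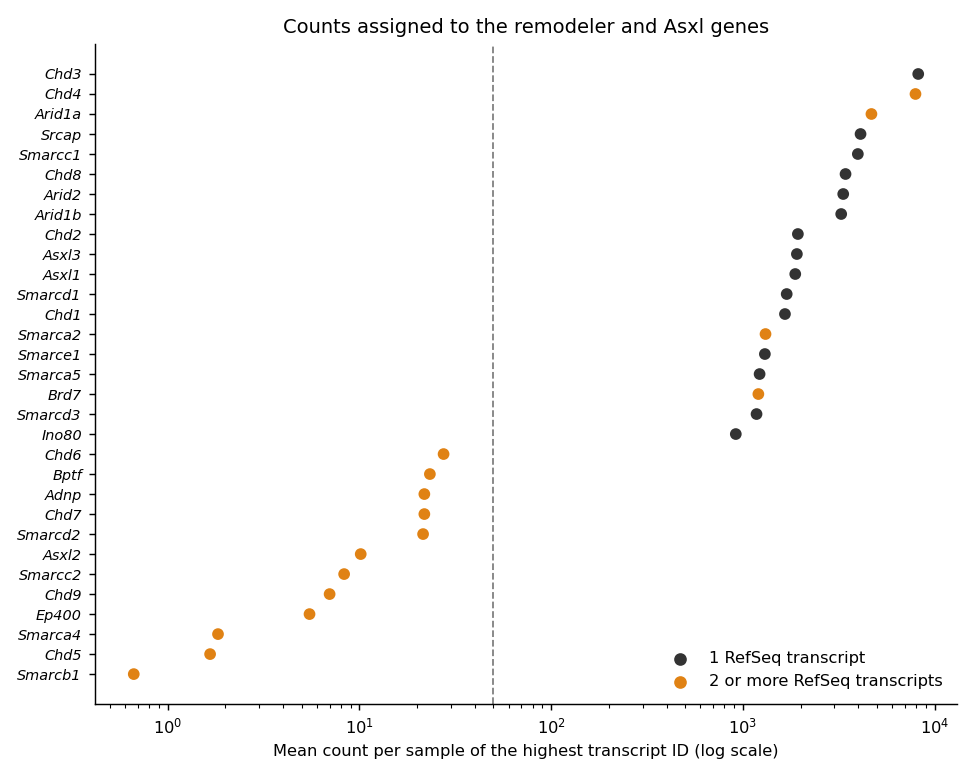
Mean count per sample (log scale) of the highest transcript ID of each of the 31 member genes, with black points for genes with 1 RefSeq transcript and orange points for genes with 2 or more. The 12 genes left of the dashed line at 50 counts are all orange, and their highest mean is 27.5 counts.

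Levels between genes were compared as CPM (counts scaled by TMM-adjusted library totals) per kilobase of the longest annotated transcript, for the 16 well covered genes whose annotated model spans at least 0.8 of the RefSeq gene. The NuRD motors Chd4 (150.3 ± 10.03 CPM per kb, SD, n = 6) and Chd3 (142.5 ± 10.1) were the highest and did not differ beyond their spread. They were followed by the SWI/SNF scaffold subunit Smarcc1 (88.8 ± 16.4), the DNA-binding subunit Arid1a (73.4 ± 12.3) and the core subunits Smarcd1 (66.9 ± 7.20) and Smarce1 (56.9 ± 7.22), with ranges of mean ± SD that overlapped between neighbours. Arid2 (47.8 ± 7.44) and Brd7 (42.8 ± 5.68), both subunits of PBAF, and Arid1b (36.6 ± 3.11) and Asxl1 (34.2 ± 2.72) formed the middle of the range. The SWI/SNF motor Smarca2 (28.1 ± 3.77), the CHD motors Chd2 (27.9 ± 5.45) and Chd1 (27.1 ± 3.08), the ISWI motor Smarca5 (25.3 ± 1.496) and Asxl3 (21.6 ± 5.77) lay close together. The motor Ino80 had the lowest mean of the 16 at 18.5 ± 2.21 CPM per kb, which did not differ from Asxl3 beyond their spread. Srcap, Chd8 and Smarcd3 had shortened models in the annotation, so that no level per length is given for them. Arid1a, Chd4, Smarca2 and Brd7 have several RefSeq transcripts, so their values are those of single IDs and may lie below the gene level. Their places in this order, and the shares within pairs that hold Chd4 or Arid1a given further on, have the same limit.

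Between the sexes, no member ID passed the test over all IDs, and most well covered members had a lower value in male samples. With edgeR's quasi-likelihood test, 0 of the 28 tested member IDs had an adjusted p under 0.05, where 4 of all 13374 tested IDs did (0.0299%), and the lowest adjusted p of a member was 0.338. The unadjusted p was under 0.05 for 10 member IDs, 8 lower and 2 higher in male samples. Over all tested IDs 4.82% were lower and 6.68% higher in male samples at that threshold. Among the 19 well covered members 7 were lower and 1 was higher, where all IDs that averaged 50 or more counts gave 5.47% and 10.1%. The median log2 fold change (male over female) was -0.26 over the 28 members and -0.01 over all tested IDs, and 21 members had a negative and 7 a positive value. CPM ranges of the sexes did not overlap for 14 of the 28 tested member IDs, 13 lower and 1 higher in male samples, where all tested IDs gave 8.33% and 8.73%. DESeq2 on the same counts gave 2 members an adjusted p under 0.05, Asxl3 (0.0193) and Srcap (0.0433), where it called 95 of all 13374 IDs. Leaving out female 1, female 2 or male 2 changed the number of members lower in male samples at an unadjusted p under 0.05 from 8 to 4, 6 and 5. The share of all IDs lower in male samples went from 4.82% to 2.29%, 2.49% and 2.91%. No member was then higher at that threshold, where all IDs gave 454 of 13221, 412 of 13201 and 803 of 13308. In whole-brain RNA, fewer cells of a type and less RNA per cell cannot be told apart.

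**Figure D2:**
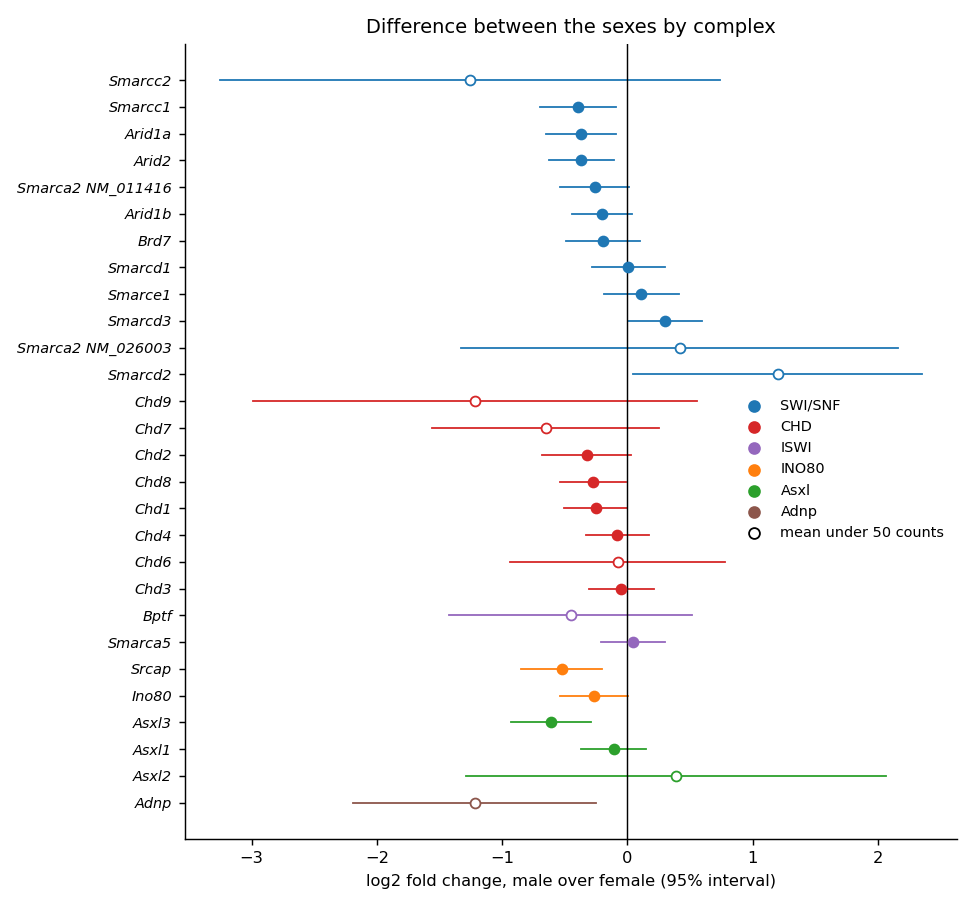
Log2 fold change of male over female samples with its 95% interval for the 28 tested member IDs, coloured by complex, with open points for IDs with a mean under 50 counts. Of the 28 points 21 lie left of 0, and the intervals of the open points are the widest.

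Asxl3 had the lowest unadjusted p of the members. Its level was 318.3, 344.6 and 251.7 CPM in female 1 to 3 and 181.8, 184.5 and 233.4 CPM in male 1 to 3 (NM_001167777). All male samples were below all female samples, with male 3 and female 3 the nearest. The log2 fold change was -0.61 with a standard error of 0.15 (unadjusted p = 0.00123, edgeR adjusted p = 0.338). The study selected Asxl3 for remeasurement on the ground of these samples, so its direction here is not independent evidence. Its paralog Asxl1, mutated in myeloid disease and in Bohring-Opitz syndrome, was at 249.9, 236.9 and 255.0 CPM in female and 204.1, 231.8 and 251.6 CPM in male samples. These ranges overlapped, and the log2 fold change was -0.11 (95% interval -0.37 to 0.15). Asxl3 made up 42.2% ± 4.77 of the summed level per length of Asxl1 and Asxl3 in female samples and 34.1% ± 1.77 in male samples (SD, n = 3 each), and the ranges of this share did not overlap, at 37.0% to 46.4% and 32.2% to 35.6%. Asxl2 rested on 4, 1 and 20 counts in female and 7, 9 and 20 counts in male samples. At these counts the groups overlapped (log2 fold change 0.39, interval -1.29 to 2.07).

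Of the INO80 family, Srcap, the motor that deposits H2A.Z and the gene of Floating-Harbor syndrome, was at 665.0, 645.0 and 568.1 CPM in female and 426.7, 349.4 and 528.8 CPM in male samples (NM_001304266, mm9 chr7:134655541-134679890). Every male sample was below every female sample, and male 2 was the lowest. The log2 fold change was -0.53 with a standard error of 0.15 (unadjusted p = 0.00379, edgeR adjusted p = 0.341). Ino80 itself was at 133.7, 125.8 and 125.3 CPM in female and 100.7, 99.8 and 119.3 CPM in male samples. These ranges did not overlap, with male 3 the nearest to the female samples (log2 fold change -0.27, interval -0.54 to 0.00). Ep400, at 2 to 8 counts, was below the filter.

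Among the SWI/SNF genes, the DNA-binding subunits Arid2 and Arid1a and the scaffold Smarcc1 had the lowest p-values. Arid2, which defines PBAF, was at 518.7, 486.3 and 454.1 CPM in female and 339.5, 380.4 and 412.5 CPM in male samples (NM_175251, mm9 chr15:96117953-96235894). The groups did not overlap, and the log2 fold change was -0.37 with a standard error of 0.12 (unadjusted p = 0.00961). Arid1a, which defines the canonical BAF complex with its paralog Arid1b, was at 750.2, 659.7 and 623.9 CPM in female and 545.9, 456.1 and 572.4 CPM in male samples (NM_001080819, mm9 chr4:133234923-133312684). Again all male samples were lower (log2 fold change -0.37, standard error 0.13, unadjusted p = 0.0131). Arid1b, the gene of Coffin-Siris syndrome, had a smaller difference of -0.21 (interval -0.45 to 0.04), with 441.3 to 445.6 CPM in female and 359.4 to 404.2 CPM in male samples. The share of Arid1a in the summed level per length of the pair was 67.8% ± 2.01 in female and 65.2% ± 1.34 in male samples (SD, n = 3 each), and these ranges overlapped. Smarcc1 was at 600.0, 620.9 and 524.0 CPM in female and 512.3, 364.0 and 453.5 CPM in male samples (NM_009211, mm9 chr9:110034541-110142682). Male 1 was near female 3, and the groups did not overlap (log2 fold change -0.39, standard error 0.14, unadjusted p = 0.0150). The edgeR adjusted p of Arid2, Arid1a and Smarcc1 lay between 0.341 and 0.356.

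Smarcd3, the subunit of the neuronal and cardiac complexes, was the well covered member with the highest value in male relative to female samples. It was at 126.2, 121.2 and 149.1 CPM in female and 168.1, 181.5 and 139.8 CPM in male samples (NM_025891, mm9 chr5:24096636-24107830). Male 3 lay below female 3, so that the groups overlapped (log2 fold change 0.30, standard error 0.14, unadjusted p = 0.0492, edgeR adjusted p = 0.433). The unadjusted p of Smarcd3 was 0.0545 in edgeR with RLE factors, 0.0808 with upper-quartile factors and 0.0562 with DESeq2. It was 0.0295 in edgeR without a count filter and 0.0220 with 2 RUVr factors. Without female 1, female 2, male 1 or male 2 it was not under 0.05. Its paralog Smarcd1 had a log2 fold change of 0.00 (interval -0.29 to 0.30), and the core subunit Smarce1 had 0.11 (interval -0.19 to 0.41). The motor Smarca2 (NM_011416) had -0.26 (interval -0.54 to 0.02) and Brd7 -0.20 (interval -0.49 to 0.10). Smarcd2 (NM_001130187) had 6, 3 and 27 counts in female and 39, 24 and 30 counts in male samples. Allowing for library size, at 0.60 to 2.75 and 3.00 to 4.03 CPM, the groups did not overlap (log2 fold change 1.20, standard error 0.53, unadjusted p = 0.0425, edgeR adjusted p = 0.419). The value was 2.15 without female 3 and 0.88 without female 2, where the unadjusted p was 0.126. Smarcc2, the paralog of Smarcc1, had 16, 6 and 11 counts in female and 0, 7 and 10 counts in male samples. In CPM the male samples were below the female samples, with no count in male 1 (log2 fold change -1.26, interval -3.25 to 0.74). Over all settings that tested Smarcc2 the value ran from -2.07 to -0.65. The second tested ID of Smarca2 (NM_026003), at 4 to 15 counts, had 0.42 on the log2 scale (interval -1.33 to 2.16).

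All 8 tested CHD genes had a negative log2 fold change, from -1.21 for Chd9 to -0.05 for Chd3. Chd9 had 14, 6 and 7 counts in female and 2, 5 and 8 counts in male samples, and its groups overlapped in CPM. Chd8, a motor gene often mutated in autism, was at 505.9, 478.5 and 455.4 CPM in female and 409.0, 349.8 and 432.4 CPM in male samples (NM_201637, mm9 chr14:52817826-52857466). The groups did not overlap, though male 3 was near female 3 (log2 fold change -0.27, standard error 0.12, unadjusted p = 0.0417). Chd1, which binds methylated histone H3 at active genes, was at 247.0, 238.7 and 215.5 CPM in female and 183.8, 209.0 and 195.3 CPM in male samples (NM_007690, mm9 chr17:15841931-15909574). These groups did not overlap either (log2 fold change -0.26, standard error 0.12, unadjusted p = 0.0497), and the edgeR adjusted p was 0.417 for Chd8 and 0.434 for Chd1. Chd2, an epilepsy gene, was at 257.6 to 317.6 CPM in female and at 165.1, 256.7 and 250.2 CPM in male samples, so that male 1 stood apart from the others (log2 fold change -0.33, interval -0.68 to 0.03). For the NuRD motors no difference beyond the spread between samples was found. Chd3 was at 1055, 941.1 and 1159 CPM in female and 988.2, 1043 and 1022 CPM in male samples (log2 fold change -0.05, interval -0.31 to 0.21). Chd4 had a log2 fold change of -0.08 (interval -0.33 to 0.17), and Chd3 made up 48.4% ± 0.945 of the level per length of the pair in female and 49.0% ± 0.797 in male samples (SD, n = 3 each). The CHARGE syndrome gene Chd7 and Chd6 were counted 10 to 39 times in each sample, with log2 fold changes of -0.65 (interval -1.56 to 0.25) and -0.08 (interval -0.94 to 0.78).

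The ISWI motor Smarca5 was at 140.6, 151.1 and 164.3 CPM in female and 158.4, 163.2 and 149.2 CPM in male samples. The groups overlapped, with a log2 fold change of 0.04 (interval -0.21 to 0.30). Bptf, the NURF subunit, had 19, 21 and 33 counts in female and 13, 19 and 35 counts in male samples. These overlapped too in CPM (log2 fold change -0.45, interval -1.42 to 0.52). Adnp, mutated in Helsmoortel-Van der Aa syndrome, had 38, 18 and 28 counts in female and 15, 11 and 21 counts in male samples. At 2.86 to 6.14 CPM in female and 1.55 to 2.098 CPM in male samples the groups did not overlap (log2 fold change -1.22, standard error 0.45, unadjusted p = 0.0176, edgeR adjusted p = 0.364). Without female 1 the value was -0.84 (unadjusted p = 0.133).

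**Figure D3:**
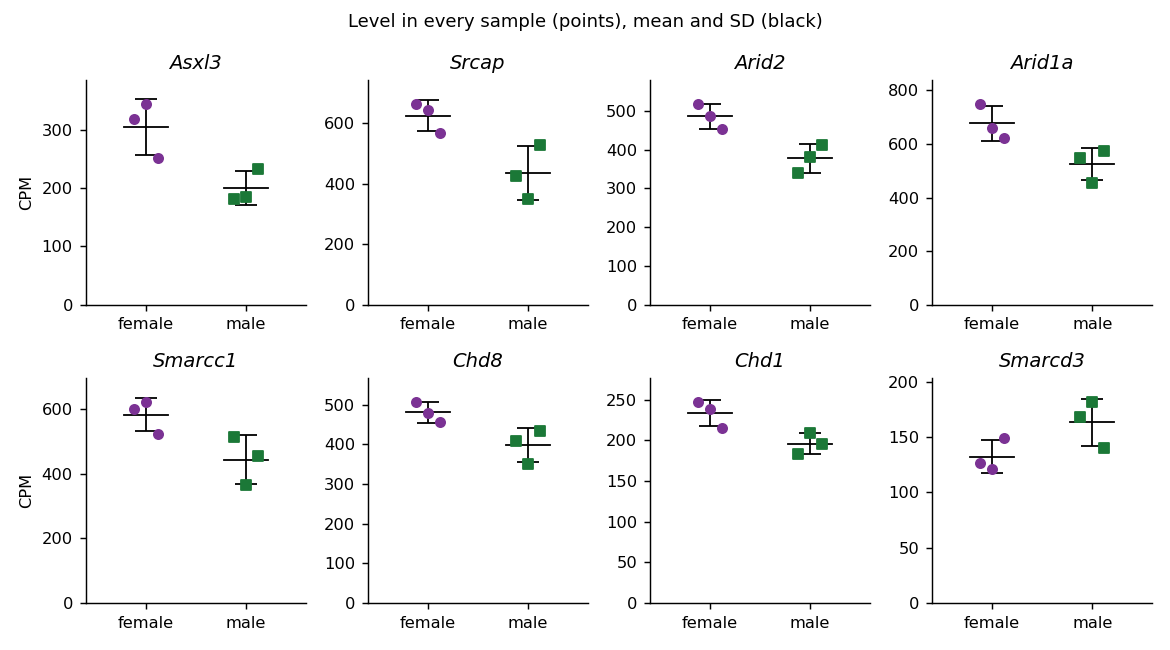
CPM in each of the 3 female (circles) and 3 male (squares) samples for the 8 well covered members with an unadjusted p under 0.05, with replicates 1 to 3 from left to right and black bars for the mean and SD. For Asxl3, Srcap, Arid2, Arid1a, Smarcc1, Chd8 and Chd1 all male points lie below all female points, and for Smarcd3 the groups overlap.

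The lower values in male samples were shared by the long transcripts of the list. Of the 14 well covered members over 5000 nt, 13 had a negative log2 fold change (median -0.27) and 6 were lower in male samples at an unadjusted p under 0.05. The 5 members up to 5000 nt had 2 negative and 3 positive values (median 0.00), with 1 lower (Srcap) and 1 higher (Smarcd3) at that threshold. Over all tested IDs, with no limit on the mean count, those over 5000 nt had a median of -0.15, and 12.6% of them were lower and 0.734% higher in male samples at that threshold. Those up to 5000 nt had a median of 0.04, with 3.03% lower and 8.30% higher. The members were long, with a median of 6832 nt against 2868 nt over all tested IDs. Srcap, at 4545 nt in the shortened model, was placed among the short ones.

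**Figure D4:**
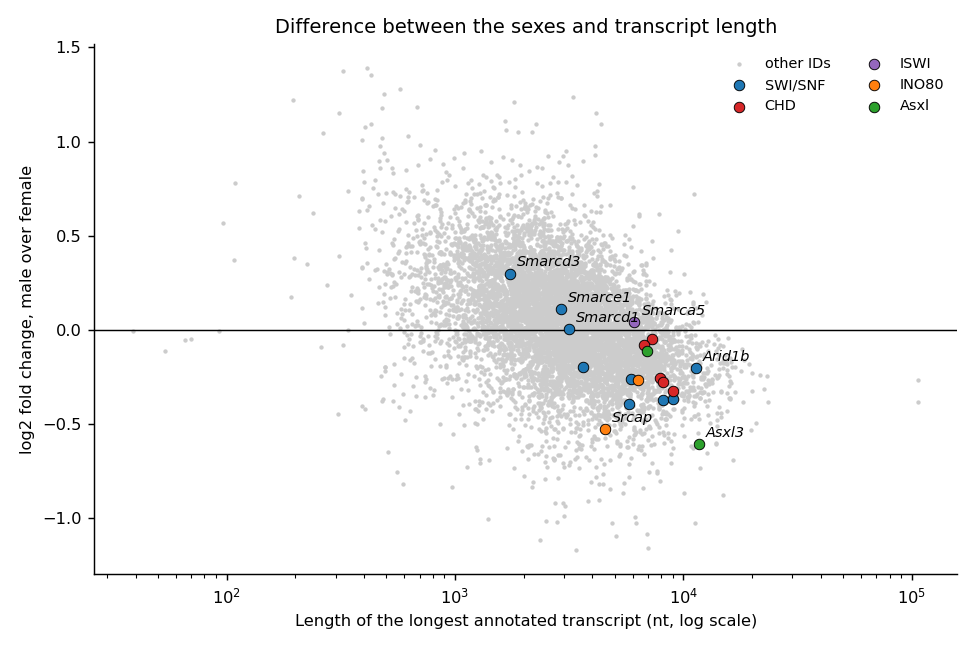
Log2 fold change of male over female samples against the length of the longest annotated transcript (log scale) for the 8152 IDs that averaged 50 or more counts and had a known length and a log2 fold change between -1.5 and 1.5 (4 IDs lay beyond), with the 19 well covered members in colour. The cloud falls from left to right, and the members lie mainly at its long end.

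When the trend of each sample with transcript length was removed before the test, the median of the 28 members moved from -0.26 to -0.13, and the median of all tested IDs was then -0.04. At an unadjusted p under 0.05, 4 members were lower in male samples (Asxl3, Srcap, Smarcc1 and Adnp), where all tested IDs gave 4.96%, and Smarcd2 was higher. The log2 fold change of Asxl3 became -0.37 (unadjusted p = 0.00872, edgeR adjusted p = 0.490). The removal used the shortened models of Srcap, Chd8 and Smarcd3, so their values after it (-0.49, -0.10 and 0.15) do not show what a removal by their full length would give. Arid2 (-0.18), Arid1a (-0.20) and Chd1 (-0.09) no longer had an unadjusted p under 0.05. With trends in GC content removed as well, Arid1a had -0.29 (unadjusted p = 0.0182) and Smarcc1 -0.26 (unadjusted p = 0.0612), so that their places were exchanged. Arid1b, Asxl1, Chd3 and Chd4 had positive values of 0.02 to 0.09 after the removal. Smarca5 moved from 0.04 to 0.15 and Brd7 from -0.20 to -0.21.

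**Figure D5:**
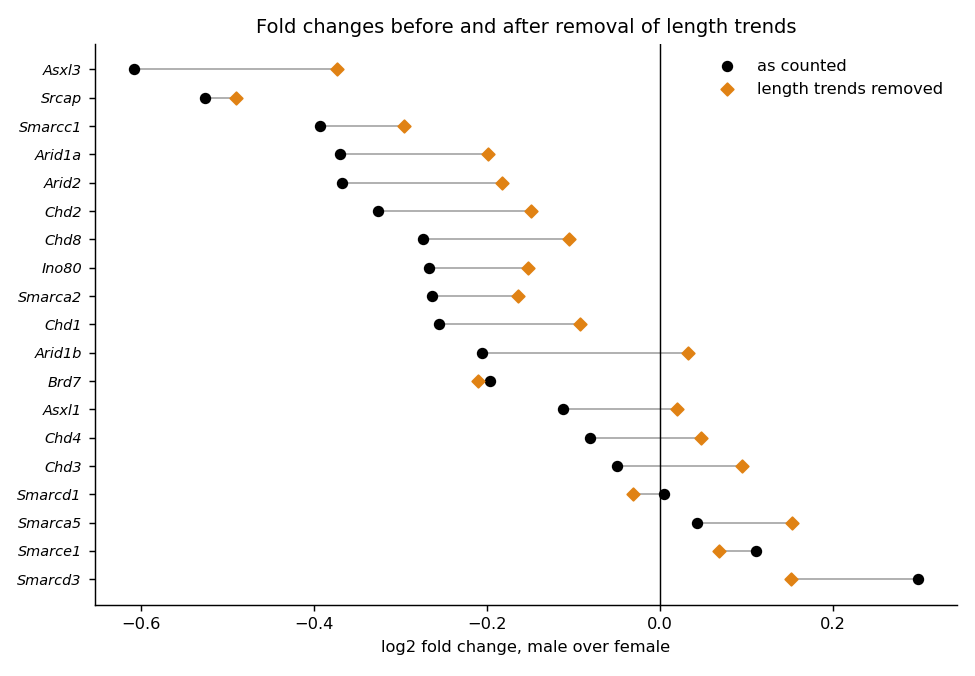
Log2 fold change of male over female samples of the 19 well covered members as counted (black circles) and after removal of the trend of each sample with transcript length (orange diamonds). Asxl3 moves from -0.61 to -0.37, the lengths of Srcap, Chd8 and Smarcd3 are those of shortened models, and Arid1b, Asxl1, Chd3 and Chd4 cross 0 to the right.

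Other subunits and partners of the same complexes, and some Snf2 ATPases outside them, were taken from a second list of 80 genes. Of these, 72 had an ID and 65 IDs were tested. With edgeR 0 of the 65 IDs had an adjusted p under 0.05, as with DESeq2. At an unadjusted p under 0.05, 9 were lower and 4 were higher in male samples (against 4.82% and 6.68% of all tested IDs). The ATPases outside the complexes, with 4 tested IDs, gave 2 of the 9. The median log2 fold change of the 65 IDs was 0.01. Adjusted calls appeared under other settings, with Baz2b, Gatad2b and Rsf1 under DESeq2 with 1 RUVr factor, Gatad2b without a count filter and Baz2b under edgeR with 2 RUVr factors. Those over 5000 nt that averaged 50 or more counts were lower in male samples in 12 of 14 cases (median -0.25), and those up to 5000 nt were higher in 27 of 37 cases (median 0.10). Over all tested IDs, with no limit on the mean count, 1690 of 2316 long ones were lower and 5717 of 10409 short ones higher in male samples. The lowest p-values among the lower ones were those of Gatad2b, a NuRD subunit, at 89.0 to 125.4 CPM in female and 60.0 to 84.3 CPM in male samples (log2 fold change -0.56, unadjusted p = 0.00424), and of the ISWI partner Rsf1 (-0.35, unadjusted p = 0.00803). Bicra (-0.51) and Bicral (-0.39), alternative subunits of the non-canonical SWI/SNF complex, followed. Gatad2b and Bicra had shortened models in the annotation, and by its model Gatad2b was placed among those up to 5000 nt. Higher in male samples were Chrac1, a small histone-fold subunit of an ISWI complex (0.61, unadjusted p = 0.00981), Bap1, the enzyme that Asxl proteins activate (0.38), the SWI/SNF subunit Actl6a (0.38) and the NuRD subunit Cdk2ap1 (0.35). Bap1 was at 169.2 to 190.4 CPM in female and 197.1 to 262.2 CPM in male samples, without overlap, where Asxl3 had the opposite direction.

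Some SWI/SNF subunits are exchanged as progenitors become neurons, and no such subunit had an edgeR adjusted p under 0.05. Actl6a, of the progenitor complex, and Actl6b, of the neuronal complex, had log2 fold changes of 0.38 (unadjusted p = 0.0212) and 0.31 (unadjusted p = 0.0587), and both pairs of ranges overlapped. Phf10, of the progenitor complex, had -0.05 and 0.01 for its 2 IDs, the neuronal Dpf1 had 0.33 (unadjusted p = 0.0697), and the low Dpf3 had 0.13. The neuronal Ss18l1 had 0.15, and its progenitor counterpart Ss18 matched no ID and was not analysed here.

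Marker genes checked the labels and the tissue. Xist, Ddx3y and Kdm5d matched the labelled sex in all 6 samples. Markers of neural progenitors summed to 2504 to 2966 CPM and those of neurons to 2426 to 3444 CPM, and both ranges overlapped between the sexes. Single markers of these lists were higher in male samples at an unadjusted p under 0.05, namely Sox2 (log2 fold change 0.39) and Hes1 (0.37), without overlap, and Tubb3 (0.39), with overlap. Markers of tissue outside the brain were also abundant, with 17440 to 25720 CPM for fibroblast collagens and their partners (5 of 5 markers found) and 2732 to 3700 CPM for skeletal muscle (4 of 5). The sums of 3 lists of other cell types had ranges without overlap. Cartilage markers (5 of 5) were at 340.0 to 469.1 CPM in female and 144.1 to 302.8 CPM in male samples, endothelial markers (3 of 4) at 553.2 to 586.4 and 465.5 to 543.0 CPM, and choroid plexus markers (3 of 4) at 423.7 to 512.7 and 533.7 to 701.6 CPM. The choroid plexus sum was almost all Ttr (log2 fold change 0.38, no overlap), while Kl had -0.12. Otx2 had 0 or 1 counts per sample and was not tested. Of the cartilage markers, Hapln1 (209.3 to 283.8 CPM in female and 84.1 to 171.2 CPM in male samples) did not overlap between the sexes and Col2a1, Col9a1, Matn1 and Acan did. Col9a1 (NM_007740, -0.91) and Matn1 (-0.78) were nevertheless lower in male samples at an unadjusted p under 0.05, as was Hapln1. Single markers of the remaining lists at that threshold were Myh3 of skeletal muscle (-0.28, no overlap), Olig1 of oligodendrocyte precursors (0.57, no overlap) and Krt15 of surface epithelium (0.51, with overlap). Within the endothelial list Cdh5 (-0.26) and Kdr (-0.17) were below 0 on the log2 scale and Cldn5 was above it (0.43, unadjusted p = 0.0235). These sums differed between the sexes beside the member values, and their part in the member differences was not tested.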

How the data were processed

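RNA of 3 female and 3 male pools of E15.5 whole brain was measured by RNA-seq. According to the study's methods, the authors trimmed reads with Trimmomatic 0.32, aligned them to mm9 (NCBIM37) with TopHat 2.1.1, assembled transcripts with Cufflinks 2.2.1 and assigned reads with featureCounts 1.5.1. The settings for strand, shared reads and multiple alignments are not given in the sources used here. The deposited values are raw counts for RefSeq transcript IDs, with a table for each sample.

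Symbols came from a RefSeq table (99.5% of IDs named), and position, length and GC content from the GENCODE annotation of NCBIM37 (91.5% of IDs). IDs that reached 10 counts in 1 or more samples were tested with edgeR 4.0.16 (R 4.3.3, quasi-likelihood F test, male against female, TMM, Benjamini-Hochberg over all 13374 tested IDs). Standard errors are the fold change over the root of F. A count of 3, the upper limit that a count of 0 allows, was 0.300 to 0.597 CPM in these samples, for counting error only. No pair of samples was a copy of another. Separate pools are stated as biological replicates, but no batch, date or litter is given, so no comparison within batches was made. Alternatives were RLE and upper-quartile factors, other count filters, DESeq2 1.42.0, RUVr factors (leading singular vectors of the edgeR deviance residuals), counts summed per gene, removal of trends with length and GC content (lowess), a replicate block and leaving out each sample. The same-numbered samples did not deviate together, so the numbers were not taken to pair them. Tests were checked on simulated data. Figures were drawn with Python 3.11.15 and matplotlib 3.10.9.

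The members, the second list, the marker lists and the tests were chosen with earlier results of these data known. Every member ID is reported, with values in every sample for those with an unadjusted p under 0.05 and for the IDs with the lowest and highest fold change of each class. Of the second list, up to 4 genes per direction with the smallest unadjusted p and a mean of at least 50 counts are named, with the exchanged SWI/SNF subunits. Values of other members, and the windows of promoters printed, were chosen after their values were seen.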

Additional observations from a re-analysis of the deposited data

How the results depend on the processing

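The number of members with an edgeR adjusted p under 0.05 was 0 and stayed 0 when any sample was left out (0 to 0) and under every scaling and filter tried except testing without a low-count filter, which gave 2 (Asxl3 and Srcap). DESeq2 gave 2 (the same genes), DESeq2 with 1 RUVr factor 3 and edgeR with 2 RUVr factors 3 (Asxl3, Srcap and Arid2 in both). Over all IDs the calls rose from 4 to 276 without a filter, 95 with DESeq2, 344 once DESeq2 had 1 RUVr factor and 478 once edgeR had 2 of them. The 10 members with an unadjusted p under 0.05 became 5 with length trends removed and 4 with length and GC trends removed, and 4 (without female 1) to 10 (without male 3) when a sample was left out. The number was 12 with upper-quartile factors, 14 with edgeR and 1 RUVr factor, and 15 both with DESeq2 and 1 factor and with edgeR and 2 factors. Of these 11, 12, 13 and 13 were lower in male samples, against 8 in the main fit. The share of all IDs lower in male samples was 7.01%, 9.2%, 7.77% and 10.1%, against 4.82%. The members higher in male samples were 1, 2, 2 and 2, against 2, where all IDs gave 673, 1155, 861 and 1525 of 13374, against 893. With the replicate number as a block there were 6, 5 lower and 1 higher in male samples (3.29% of all IDs were lower). The correlation of deviations of same-numbered samples was -0.32, -0.04 and -0.27, and the block changed no adjusted call. The members' median of -0.26 became -0.13 with length trends removed and -0.11 with length and GC trends removed, and ranged from -0.33 to -0.20 when a sample was left out. The 13 IDs of the second list (9 lower and 4 higher in male samples) became 21 with edgeR and 2 RUVr factors (11 and 10, where 10.1% of all IDs were lower). There were 14 with IDs summed per gene (7 and 7), 7 with length trends removed (5 and 2) and 7 with length and GC trends removed (4 and 3). In these settings, in that order, all IDs gave 1356 lower and 1525 higher of 13374, 583 and 988 of 12949, 663 and 581 of 13374, and 689 and 574 of 13374. The main fit gave 644 and 893 of 13374. Leaving out a sample gave 4 (without female 1) to 18 (without female 3), where all IDs gave 303 lower and 454 higher of 13221, and 770 and 1347 of 13162. Without male 3 there were 17 of the second list, with 10 higher and 7 lower in male samples, where all IDs gave 1064 higher and 813 lower of 12997.

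Several values near 0 changed sign. Smarcd1 was -0.0042 with RLE factors and with DESeq2, -0.052 with upper-quartile factors, -0.0172 with 10 or more counts in every sample and with DESeq2 and 1 RUVr factor, -0.0083 and -0.006 with edgeR and 1 or 2 factors, -0.0315 and -0.1074 with length, and length and GC, trends removed, -0.0737 without female 2, and between -0.1016 (without male 1) and 0.1079 (without male 2) over all samples left out in turn. With length, and length and GC, trends removed, Asxl1 was 0.0203 and 0.0168, Arid1b 0.0328 and 0.0087, Chd4 0.0473 and 0.0253, Chd3 0.0949 and 0.0242, and Chd6 0.1322 and 0.1683. Smarca5 was -0.0121 with upper-quartile factors and -0.0112 without female 1, and 0.1138 without female 3, the highest value with a sample left out. Leaving out samples in turn gave Chd6 -0.2398 (without female 3) to 0.204 (without female 1), with 0.1013 without male 1, Asxl2 -0.0247 (without female 2) to 1.6163 (without female 3) and Smarce1 -0.0209 (without male 2) to 0.1886 (without male 3), and Chd3 was 0.0361 without female 3. Without a filter the median of all IDs was -0.11. The cause of these changes was not tested. Of the 9 tested members with a mean under 50 counts, 7 had intervals that held 0. Adnp lost its unadjusted p under 0.05 when female 1 was left out. Smarcd2 lost it when any of female 1, female 2, male 1 or male 2 was left out.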

Other observations

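The split of the member genes by the number of RefSeq transcripts was also present over the whole table. Genes with 1 RefSeq transcript (14519) had a median of 36.2 counts per sample over their IDs, and 47.7% of them reached a mean of 50 counts. Genes with 2 transcripts (3388) had a median of 4.67 counts, with 22.6% at 50 counts or more, and genes with 3 or more (3026) had 5.33 counts and 19.9%. The sum of the IDs of a gene, as well as single IDs, was therefore low for many genes that have several transcripts, and Smarca4, Smarcb1, Chd7 and Adnp are among them.

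The median deviation of the 19 well covered members from their own mean over samples was 0.16, 0.10 and 0.09 on the log2 scale in female 1 to 3 and -0.12, -0.17 and -0.03 in male 1 to 3. Male 3 was the male sample nearest to the female samples, and it also had the highest sum of cartilage markers of the male samples, at 302.8 CPM against 144.1 and 152.6 CPM in male 1 and male 2. Whether these values are connected was not tested.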
